A study of Homo sapiens with 2 samples.

Results

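The HOX genes of HEK293T cells were described from RNA-Seq of poly(A)+ RNA. HEK293T is a line derived from human embryonic kidney and made to express the large T antigen of SV40, and the labels give its genotype as wild type. Cells had a heat shock of 20 min at 43 °C and a recovery of 6 h at 37 °C before lysis, and the labels gave 1 group, heatshock, of 2 libraries named replicate 1 and replicate 2. The duration of heating is that of the labels, and the text of the study gives a longer one. Each replicate was lysed separately. The methods call the repeats of the study's chromosome contact (4C) experiments biological replicates but do not say so of the RNA-Seq libraries, so the spread between these may be technical. Untreated cells were not analysed here, so the levels described are those after heating and recovery, and no change caused by heating was measured. The members were all protein-coding genes with a symbol made of HOX, a cluster letter from A to D and a number. This gave 39 of the 57736 genes in the tables, and all 39 were listed for both libraries, with or without reads. They comprised 11 HOXA, 10 HOXB, 9 HOXC and 9 HOXD genes.

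HOX genes encode transcription factors that bind DNA through a homeodomain and give cells their position along the head-to-tail axis of the embryo. They lie in 4 clusters on different chromosomes, and genes with the same number in different clusters, called paralogs, descend from a common ancestral gene. Low-numbered (anterior) genes are used early and towards the head, and high-numbered (posterior) genes are used later and towards the tail, limbs, urogenital tract and kidney. HOX proteins bind together with homeodomain partners of the TALE class, and Polycomb and trithorax proteins keep the clusters silent or active. On the GRCh37 build, the HOXA genes lie on chromosome 7, and the others span chr17:46605888-46806112 for HOXB, chr12:54332615-54449814 for HOXC and chr2:176957449-177055635 for HOXD.

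Because the paralogs look alike, the coding sequence of the recognition helix, the part of the homeodomain that lies in the major groove of DNA, is shown for HOXB9, the member with the highest level, for its paralogs HOXC9 and HOXD9, for HOXD13, and for HOXB1, the member with the fewest reads. Each line is exonic coding sequence, 51 bases (17 codons) of the homeobox of 180 bases, read from GENCODE transcripts on GRCh37, and capitals mark the bases that differ from HOXB9.
HOXB9: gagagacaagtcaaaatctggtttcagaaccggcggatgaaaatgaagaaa
HOXC9: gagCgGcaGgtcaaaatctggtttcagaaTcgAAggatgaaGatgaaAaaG
HOXD9: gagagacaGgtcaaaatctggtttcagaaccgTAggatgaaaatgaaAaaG
HOXD13: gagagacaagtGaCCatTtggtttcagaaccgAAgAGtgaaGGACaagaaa
HOXB1: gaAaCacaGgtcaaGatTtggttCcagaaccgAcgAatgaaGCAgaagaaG
HOXD9 differed from HOXB9 at 5 of these bases and HOXC9 at 9, while HOXD13 and HOXB1 each differed at 12. Over the whole homeobox, genes with the same number were identical at 69.4% to 90.6% of bases (median 81.7%, 42 pairs), and all other pairs at 47.8% to 91.1% (median 60.6%, 699 pairs). The reads were 50 bases long, and the number of identical 50-base sequences between members was therefore counted. Between clusters, HOXB3 and HOXD3 shared 13 such sequences, and no other pair of HOX genes from different clusters shared any. The remaining sharing among HOX genes was within clusters.

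Members were set on the scale of TPM (transcripts scaled to a common total), which divides reads by transcript length so that levels of different genes can be compared. A gene was called detected where each library gave it a TPM of 1 or more. By this measure 36 of the 39 HOX genes (92.3%) were detected, against 26.3% of all genes in the tables and 63.8% of the 19391 protein-coding genes. The summed HOX level was 1186 TPM in replicate 1 and 1258 TPM in replicate 2, or 0.119% and 0.126% of all TPM. Over the 39 members the median level was 17.4 TPM, against 6.18 TPM over all protein-coding genes and 18.6 TPM over the detected ones. In a population of cells, fewer cells using a gene and less RNA per cell cannot be told apart. Depth was 22529828 expected counts in replicate 1 and 26890199 in replicate 2, and 33 members had at least 100 expected counts in both.

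**Figure D1:**
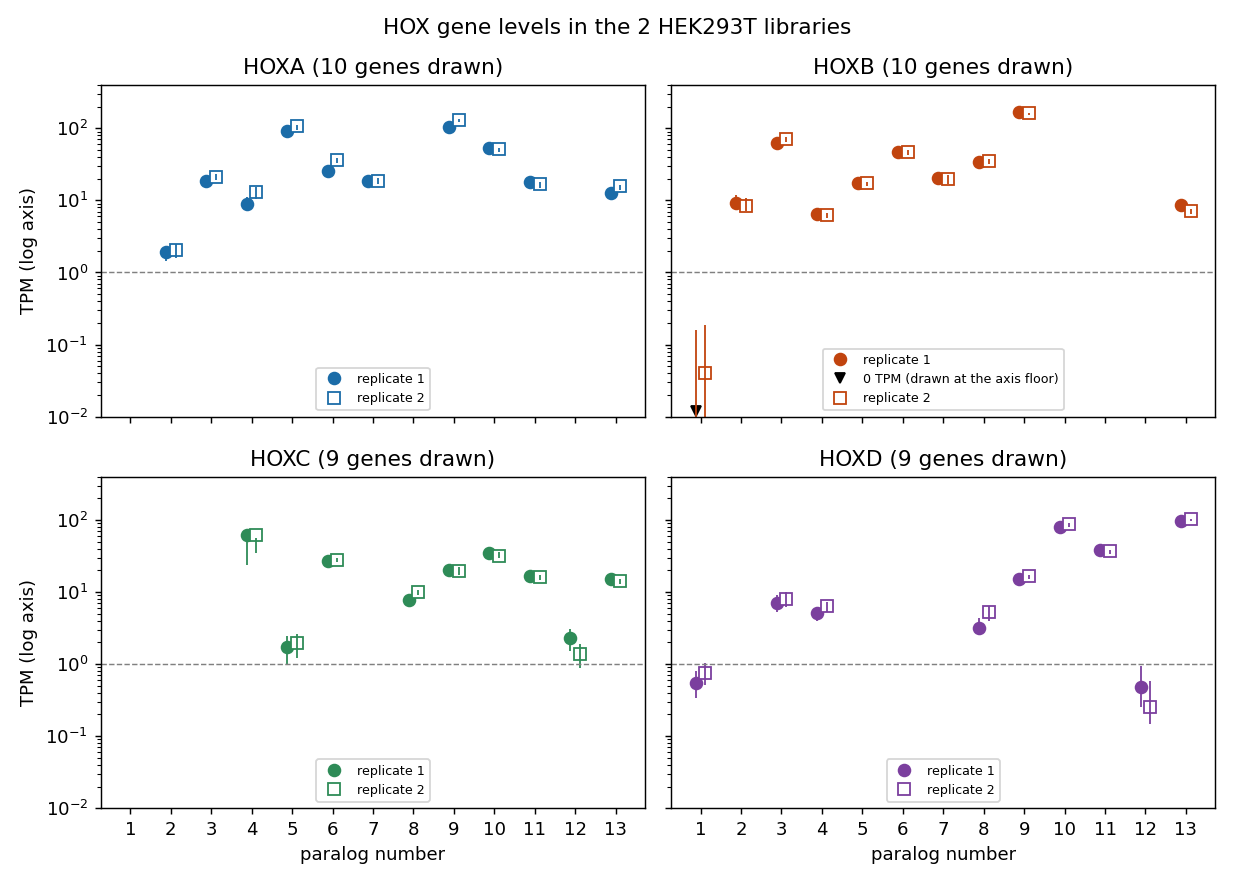
Level of each HOX gene in TPM (log axis) by paralog number, with a panel for each cluster and without 1 HOXA gene. Filled circles are replicate 1, open squares are replicate 2, vertical lines are the deposited credibility bounds of each value, the dashed line is 1 TPM, and the black triangle marks HOXB1 at 0 TPM in replicate 1. HOXB1, HOXD1 and HOXD12 lie below the dashed line, and HOXD12, at 0.48 and 0.25 TPM, stands far below its neighbours HOXD11 and HOXD13.

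The highest HOX gene was HOXB9 (ENSG00000170689, chr17:46698518-46703720, minus strand), which patterns the thoracic skeleton. Its level was 170 TPM in replicate 1 and 163 TPM in replicate 2, above 96.2% of protein-coding genes. HOXA9 (ENSG00000078399, chr7:27202057-27214799, minus strand), which acts in blood stem cells and is often overexpressed in acute leukaemia, followed at 105 and 130 TPM. The libraries lay further apart for HOXA9 than for HOXB9, and the ranges of these genes did not overlap. HOXD13, the digit and genital gene at the posterior end of its cluster, reached 97.6 and 102 TPM. HOXA5, needed for the lung and airway, reached 92.6 and 106 TPM, a range that includes both values of HOXD13 and reaches the lower value of HOXA9, so the order of these genes is not fully resolved. HOXD10, which specifies lumbar motor neurons, reached 79.4 and 87.6 TPM and was apart from its neighbours in the order. These 5 genes held 46.3% of the summed HOX level, and the 10 highest held 68.1%.

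The next 5 genes were HOXB3, HOXC4, HOXA10, HOXB6 and HOXD11. HOXB3, a hindbrain gene, was at 62.5 and 71.1 TPM. HOXC4 was deposited at 62.6 and 61.8 TPM, but these values are uncertain. Both lay above their own upper credibility bounds (61.5 and 55.8 TPM), the posterior mean was 45.6 and 46.0 TPM, and the posterior SD of the count was 19.0% and 9.77% of it. The reference exons of HOXC4 share 484 bases with HOXC6 on the same strand, and only 2 other members, HOXD13 and HOXB1, had any TPM outside its bounds. HOXA10, needed in the uterine lining, was at 53.2 and 51.8 TPM. HOXB6 was at 46.4 and 47.0 TPM and shares 433 exonic bases with HOXB3. HOXD11 was at 38.0 and 37.3 TPM and shares 452 exonic bases with HOXD10. Along the whole order of 39 genes, the ranges of the libraries did not overlap for 17 of the 38 adjacent pairs, and the longest run of overlapping pairs went from HOXB5 (17.5 and 17.4 TPM) down to HOXD3 (7.03 and 8.01 TPM).

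Summed over each cluster, HOXA reached 376 and 434 TPM, HOXB 375 and 375 TPM, HOXD 246 and 264 TPM, and HOXC 188 and 186 TPM. HOXA thus held 33.1% ± 1.93 (SD, n = 2) of the HOX level, HOXB 30.7% ± 1.3, HOXD 20.9% ± 0.138 and HOXC 15.3% ± 0.771. HOXD lay above HOXC and below the other clusters in both libraries. HOXA and HOXB were almost level in replicate 1, and their order turned when reads were not divided by length: on CPM, counts scaled to the library total, HOXA held 25.5% and HOXB 35.7%. All 11 HOXA genes and all 9 HOXC genes were detected, with 9 of 10 HOXB and 7 of 9 HOXD genes. The level was unevenly spread in each cluster. HOXB9 alone held 44.4% of the HOXB level, HOXD13 held 39.1% of HOXD, HOXC4 held 33.2% of HOXC and HOXA9 held 29.0% of HOXA. Without the highest gene of each cluster, the order of the clusters by share was the same.

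By paralog number, the 16 posterior genes (9 to 13) held 57.2% ± 0.932 of the HOX level, the 15 central genes (4 to 8) held 32.4% ± 0.723 and the 8 anterior genes (1 to 3) held 10.4% ± 0.209 (SD, n = 2). The median posterior gene, at 18.60 TPM, was about level with the median central gene, at 18.45 TPM. The median anterior gene was at 8.11 TPM. HOXB9 alone held 23.8% of the posterior level. The number 9 genes summed to 310 TPM in replicate 1 and 329 TPM in replicate 2, the highest of the 13 numbers. Number 10 followed at 168 and 171 TPM, number 13 at 134 and 139 TPM and number 5 at 112 and 126 TPM. Number 12 was the lowest, at 2.78 and 1.63 TPM over HOXC12 and HOXD12. The posterior share was highest in HOXD, in which the posterior genes held 237 TPM (mean of 2), against 9.96 TPM for HOXD4 and HOXD8 and 8.17 TPM for HOXD1 and HOXD3. In HOXC, which has no anterior gene, the central genes held 101 TPM and the posterior genes 86.6 TPM.

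**Figure D2:**
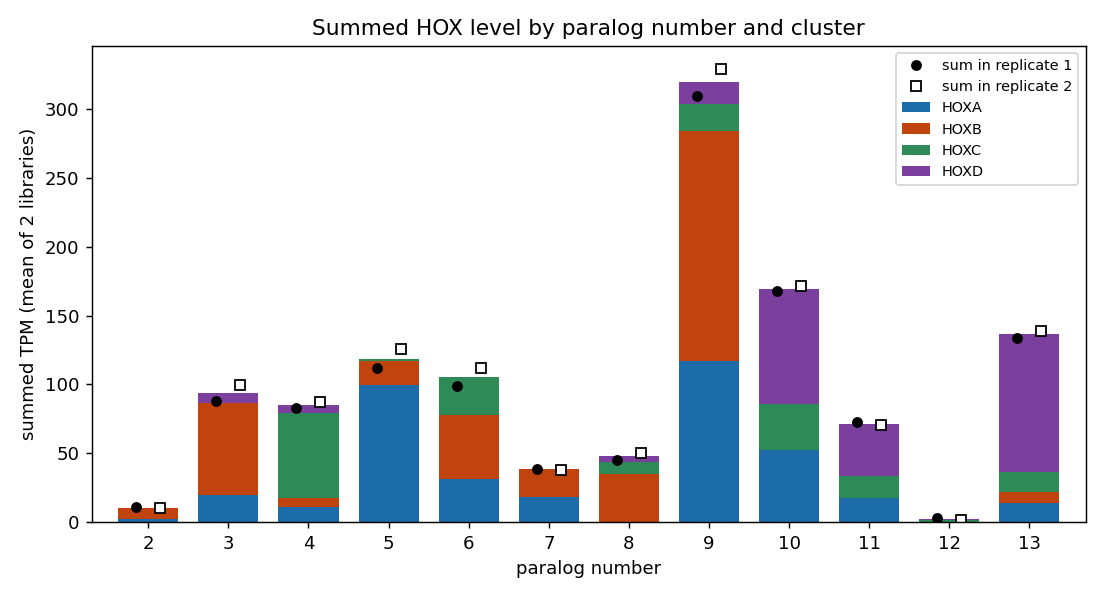
Summed TPM of the HOX genes (mean of 2 libraries) by paralog number from 2 to 13, with bars coloured by cluster and points for the sum in each library. The number 9 genes reach 310 and 329 TPM, most of it from HOXB9 and HOXA9, and the number 12 genes 2.78 and 1.63 TPM.

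Among anterior genes, HOXB1 and HOXD1 were not detected. HOXB1, which specifies facial motor neurons, had 0 expected counts in replicate 1, where a limit of 3 counts for counting error alone equals 0.0986 TPM and the deposited upper credibility bound was 0.158 TPM, and 1 expected count (0.04 TPM) in replicate 2. HOXD1 lay just outside the threshold at 0.55 and 0.75 TPM, from 20.0 and 31.0 expected counts. HOXA2, which patterns the pharyngeal arch behind the jaw, was the lowest HOXA gene at 1.90 and 2.08 TPM, and HOXB2 was at 9.10 and 8.28 TPM. The mean of HOXA2 was 9.89-fold below that of HOXA3, its neighbour on the chromosome. The number 3 genes, which shape the hindbrain, thymus and upper vertebrae, differed from one another: the mean of HOXB3 was 3.39-fold above that of HOXA3 (18.6 and 20.8 TPM) and 8.88-fold above that of HOXD3.

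Among central genes, all 15 were detected. HOXA5 held 83.8% of the level of the number 5 genes. HOXC5 was just inside the threshold, at 1.71 and 1.96 TPM, with a posterior SD of 17.9% and 15.8% of its count. Of its exonic bases 67.3% are also exons of the long noncoding gene model ENSG00000273046, which was at 1.36 and 1.89 TPM. The neighbours of HOXC5 were far higher, HOXC4 by 33.9-fold and HOXC6 (27.04 and 28.2 TPM) by 15.1-fold, though the uncertainty of HOXC4 bears on the former. The number 7 genes were nearly level, with HOXA7 at 18.4 and 18.5 TPM and HOXB7 at 20.2 and 19.6 TPM. Of the exonic bases of HOXA7, 62.5% lie opposite exons of the antisense gene HOXA-AS3. Of the number 4 genes other than HOXC4, HOXB4, which can expand blood stem cells, was the lowest detected HOXB gene at 6.41 and 6.35 TPM, and HOXD4 was at 5.16 and 6.36 TPM. The effective length by which the reads of HOXB4 were divided was 3709 bases, above its 2002 exonic bases in the annotation used here. HOXB4 was not alone in this, as the effective length of HOXB5 was 1993 bases, against 1859 exonic bases. For HOXC8, HOXB13, HOXD9 and HOXD4 it was 3323, 3419, 2370 and 1416 bases. These lengths exceed their numbers of distinct 50-base sequences in the annotation, 2368, 2990, 1822 and 1087. The expected counts of HOXB4, 433 and 489, were above those of HOXB2, 347 and 360. HOXB8, which acts in myeloid cells, was at 34.5 and 35.1 TPM, and its paralog HOXD8 was the lowest detected HOXD gene at 3.16 and 5.24 TPM. The spread of HOXD8 on the TPM scale was wider than on the count scale, and its effective length, which RSEM estimates from the mixture of isoforms, was 1838 bases in replicate 1 and 1408 bases in replicate 2.

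Among posterior genes, 15 of 16 were detected. Beside HOXB9 and HOXA9, their paralogs HOXC9, which specifies thoracic motor neurons, and HOXD9 were lower, at 19.95 and 19.9 TPM and at 14.96 and 16.5 TPM. The number 11 genes, which together direct development of the metanephric kidney and the forearm, were all detected, with HOXD11 above HOXA11 (17.8 and 16.7 TPM) and HOXC11 (16.8 and 16.4 TPM). The latter pair overlapped and was not resolved. Of the number 13 genes, HOXD13 was 6.78-fold above HOXC13, the hair and nail gene at 15.1 and 14.3 TPM, and HOXA13, the hand, foot and genital gene, was at 12.6 and 15.7 TPM. HOXB13, the prostate gene, was at 8.54 and 7.18 TPM, 21.2-fold below HOXB9, the nearest HOX gene in its cluster. HOXC12, a hair follicle gene, was just inside the threshold at 2.30 and 1.38 TPM and was lower than HOXC11 by 9.03-fold and than HOXC13 by 7.99-fold. HOXD12, a limb gene, was not detected, at 0.48 and 0.25 TPM from 12 and 9 expected counts. The level of HOXD12 was 103-fold below HOXD11 and 273-fold below HOXD13, the genes on either side of it, and the credibility bounds of HOXD12 reached no higher than 0.932 TPM.

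Sequences before a RefSeq transcript start of these posterior HOXD genes are shown because neighbours within a short stretch of chromosome 2 differed so widely in level. Each is the 250 bases upstream of a RefSeq transcript start, matched exactly and at a single place to the plus strand of GRCh37, outside all annotated exons, with CG dinucleotides, the sites of DNA methylation, in capitals.
HOXD13 (chr2:176957199-176957448): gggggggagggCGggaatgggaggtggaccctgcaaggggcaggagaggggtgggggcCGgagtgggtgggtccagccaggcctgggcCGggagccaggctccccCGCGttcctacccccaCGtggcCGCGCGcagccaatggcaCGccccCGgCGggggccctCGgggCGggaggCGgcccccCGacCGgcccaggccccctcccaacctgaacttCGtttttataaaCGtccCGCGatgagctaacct
HOXD12 (chr2:176964273-176964522): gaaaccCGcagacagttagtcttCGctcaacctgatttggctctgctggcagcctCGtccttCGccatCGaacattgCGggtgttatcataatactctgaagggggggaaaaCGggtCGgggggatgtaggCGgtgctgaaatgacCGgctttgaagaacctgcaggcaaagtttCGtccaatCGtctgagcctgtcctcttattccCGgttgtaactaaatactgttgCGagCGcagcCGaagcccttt
HOXD11 (chr2:176971758-176972007): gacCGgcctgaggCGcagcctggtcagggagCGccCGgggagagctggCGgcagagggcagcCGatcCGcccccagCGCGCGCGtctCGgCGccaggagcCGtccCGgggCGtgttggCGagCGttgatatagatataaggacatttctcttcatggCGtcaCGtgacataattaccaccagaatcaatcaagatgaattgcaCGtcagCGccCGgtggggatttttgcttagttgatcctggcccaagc
HOXD10 (chr2:176981256-176981505): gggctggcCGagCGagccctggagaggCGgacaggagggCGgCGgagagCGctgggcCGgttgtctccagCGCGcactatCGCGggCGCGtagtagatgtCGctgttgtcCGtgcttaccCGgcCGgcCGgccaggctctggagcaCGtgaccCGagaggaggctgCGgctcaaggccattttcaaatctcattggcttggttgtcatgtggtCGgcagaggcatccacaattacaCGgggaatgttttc
The windows of HOXD11 and HOXD10 lie inside their gene models in the annotation used here, which begin upstream, at chr2:176968944 and chr2:176973518. The window of HOXD12 held 16 CG dinucleotides, against 21 for HOXD13 and 23 each for HOXD11 and HOXD10. These counts do not allow for base composition. With the next 50 bases included, the ratio of observed to expected CG was 0.868 for HOXD12 and 0.600 for HOXD13. It was 0.938 for HOXD11 and 0.860 for HOXD10. RefSeq windows of 300 bases (the 250 upstream bases and the 50 that follow) were found for 20 members, 26 distinct windows in a table of 34943. HOXC4 and HOXC5 share 1 of these windows, the only HOXC window, and 7 belong to HOXA3. The only HOXB gene with a window was HOXB1, so the HOX values that follow rest mainly on HOXA and HOXD. The median window held 22.5 CG dinucleotides in HOX genes and 14 in the whole table, at GC contents of 58.0% and 58.7%, and the observed over expected CG ratio was 0.855 against 0.577. The letters CCAAT, searched on both strands as were the next motifs, occurred in 17 of the 26 HOX windows (65.4%) and in 34.6% of all windows. TATAAA occurred in 5 (19.2%, against 11.6%), and TGATTNAT, the letters bound by HOX and PBX together, occurred in 2 (7.69%, against 2.82%), those of HOXA2 and HOXD11. The searched motifs do not contain one another. A match is only a run of letters, and methylation and binding were not measured.

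The 2 libraries were then compared gene by gene with an exact two-sided binomial test on rounded expected counts, which compares these libraries and not conditions. Scaling was by edgeR TMM factors, and adjustment by the Benjamini-Hochberg method covered all 19714 genes whose counts summed to 10 or more. Of 38 HOX genes tested, 15 had an adjusted p under 0.05, of which 5 had the higher level in replicate 2 and 10 in replicate 1. Over all tested genes the same call was made for 43.1%, with 20.9% higher in replicate 2 and 22.2% higher in replicate 1, so the HOX share of 39.5% was close to the background. All 38 HOX ratios were within 2-fold, and their median was −0.09 on the log2 scale (replicate 2 over replicate 1), against a median of −0.0011 over all tested genes.

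The genes higher in replicate 2 were 4 HOXA genes and HOXC8. HOXA6 was at 25.9 and 36.9 TPM, a log2 ratio of 0.39 on the count scale (exact binomial test, adjusted p = 2.30e-05). HOXA4 was at 8.80 and 12.9 TPM (log2 ratio 0.39, exact binomial test, adjusted p = 0.00477). HOXA13 had a log2 ratio of 0.31, HOXC8, at 7.79 and 10.2 TPM, of 0.26, and HOXA9 of 0.18. HOXA4 shares 31.3% of its exonic bases with the noncoding model ENSG00000273433, which was at 8.41 and 6.61 TPM, and HOXA6 shares 39.3% with the antisense gene HOXA-AS3. HOXA7, which was not called, shares 62.5% with HOXA-AS3. Strand use in counting is not given, and the part of such overlaps in the levels and differences was not tested.

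The genes higher in replicate 1 were HOXC12, HOXB13, HOXB2, HOXC10 (35.1 and 31.9 TPM), HOXA11, HOXC13, HOXC11, HOXB9, HOXA10 and HOXC4. HOXC12 had the largest ratio of the 38, −0.86 on the log2 scale (exact binomial test, adjusted p = 3.67e-05), from 138 and 94.2 expected counts. The posterior SD of the HOXC12 count was 14.5% and 16.4% of it, and the tests between the libraries did not use this SD. HOXB13 followed among the called genes at −0.36, and the other 8 lay between −0.25 and −0.12. The most significant was HOXB9, with a log2 ratio of −0.18 (exact binomial test, adjusted p = 4.02e-12) from 6621 and 7224 expected counts. No HOXD gene was called with this scaling, with 9 tested, against 43.1% of all genes.

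The direction of these calls depended on the scaling. With library totals, 6 HOX genes were higher in replicate 2 and 4 in replicate 1, and with DESeq2 size factors 5 and 6. Over all tested genes these scalings called 41.5% and 42.5%. The median GC content of the HOX transcripts was 55.2%, against 49.2% for all tested genes, and after removal of the GC trend of all genes 13 were higher in replicate 2 and 1, HOXC12, was higher in replicate 1. In that fit HOX genes had a median log2 ratio of 0.09 and 26.8% of all genes were called. HOXD3, HOXD4, HOXD9, HOXD10 and HOXD13, none of them called before, were among the 13 higher in replicate 2. HOXA9, HOXA6, HOXA4, HOXC8 and HOXC12 were called in the same direction with and without the GC trend. When replicates were assumed to vary biologically by a coefficient of 0.1, the edgeR exact test called HOXC12 alone (adjusted p = 0.041), and 7.24% of all genes.

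**Figure D3:**
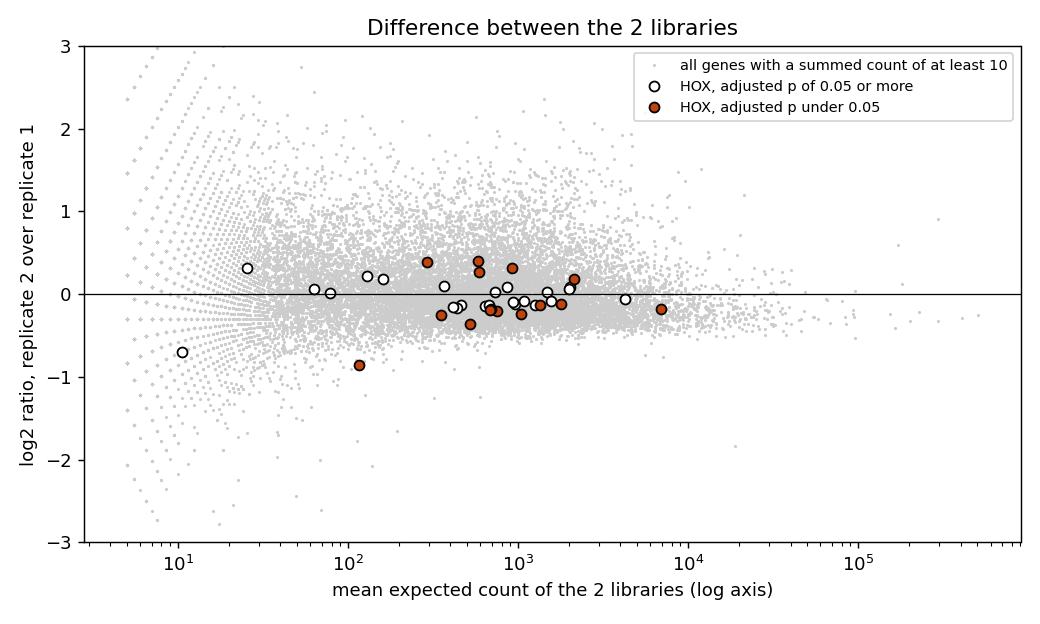
Log2 ratio of replicate 2 over replicate 1, scaled by TMM, against the mean expected count of the 2 libraries (log axis), with all tested genes in grey and HOX genes as circles, filled where the adjusted p was under 0.05. A few grey points lie outside the range drawn. The HOX genes lie within the grey cloud, and the lowest filled circle is HOXC12 at −0.86.

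Noncoding genes of the HOX clusters were measured beside the coding genes, from a list of 29 names of which 24 were matched. Of these, 15 were detected and the median was 3.56 TPM, and 3 of the 19 tested were called between the libraries, against 43.1% of all genes. HOTAIRM1, a noncoding RNA of the HOXA cluster, was the highest at 63.2 and 71.3 TPM, above its coding neighbour HOXA2. HOXA11-AS, antisense to HOXA11, was at 37.1 and 34.3 TPM, also above its partner, although 27.2% of the exonic bases of HOXA11 lie opposite it. HOXB-AS3 was at 33.3 and 32.1 TPM. HOTAIR, transcribed from the HOXC cluster, was at 16.1 and 18.4 TPM, and HOTTIP, at the posterior end of HOXA, was not detected at 0.66 and 1.20 TPM. The microRNA genes MIR10B, MIR196A2, MIR196B and MIR615 were listed at 0 in both libraries. Poly(A)+ RNA libraries do not measure mature microRNAs. The gene model ENSG00000257184, which shares exons with HOXA9 and HOXA10, was at 2.31 and 2.46 TPM.

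The partners of HOX proteins and the regulators of HOX clusters were widely detected. All 11 TALE genes were detected, and PBX2 (98.9 and 97.3 TPM) and TGIF2 (61.7 and 58.8 TPM) were among the highest, with MEIS1, a partner of posterior HOX proteins, at 33.0 and 33.7 TPM. All 24 matched Polycomb genes were detected, led by RBBP7, RBBP4 and EZH2, the methyltransferase at 103 and 109 TPM, and so were all 13 genes of the list of trithorax genes and demethylases that oppose Polycomb, led by PSIP1, MEN1 and DOT1L. Of 18 genes for chromatin boundaries and retinoic acid, which induces HOX genes, 16 were detected. SMC1A (358 and 399 TPM), CRABP2 (232 and 198 TPM) and SMC3 (51.5 and 127 TPM) were the highest. Between the libraries, 4 of 11 TALE genes, 16 of 24 Polycomb genes, 10 of 13 trithorax and demethylase genes and 10 of 16 tested boundary and retinoic acid genes were called, against 43.1% of all genes.

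Other homeobox families differed in how many members were detected. Of 13 CDX, ParaHox and related genes, which sit upstream of or are close relatives of HOX genes, 6 were detected and 4 were listed at 0 in both libraries, CDX1 and CDX4 among them. CDX2, the caudal-type activator of HOX genes, was nevertheless at 44.4 and 40.8 TPM, MNX1 at 27.3 and 29.5 TPM and GBX2 at 3.92 and 3.81 TPM. EVX2, which lies beside HOXD13, was at 0.08 TPM in both libraries. Of 24 other patterned homeobox genes 22 were detected, and PAX6, MSX1 and PITX1 were the highest at 76.1, 47.2 and 42.5 TPM (means of 2). Among genes that flank the clusters 17 of 21 were detected, led by ATP5MC2, ATP5MC3 and COPZ1. The list medians were 31.7 TPM for TALE, 37.7 for Polycomb, 39.2 for trithorax and demethylases, 17.3 for boundary and retinoic acid, 0.10 for CDX and ParaHox, 10.3 for other homeobox and 26.8 for flanking genes. Between the libraries 2 of 7 tested CDX and ParaHox genes, 7 of 23 other homeobox genes and 12 of 20 flanking genes were called, again against 43.1% of all genes.

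**Figure D4:**
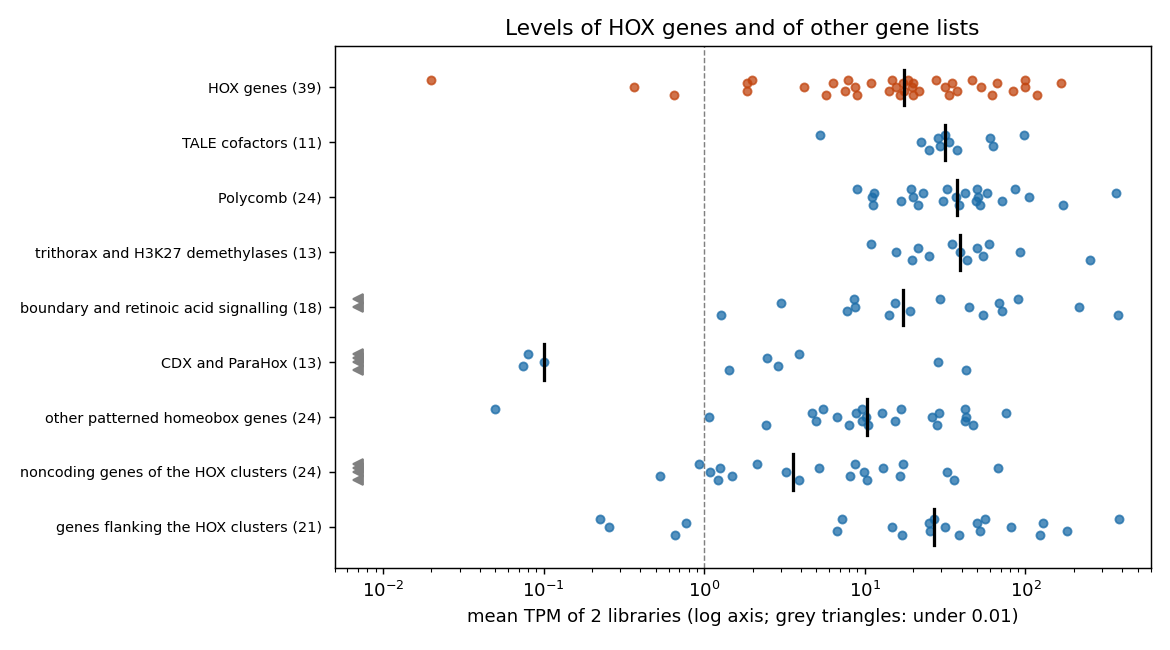
Mean TPM of 2 libraries (log axis) for the HOX genes and for 8 other lists, with the number of genes in parentheses, a black bar at each median and a dashed line at 1 TPM. Grey triangles are genes under 0.01 TPM. The HOX median is 17.4 TPM, the CDX and ParaHox median 0.10 TPM.

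The labels give the tissue as kidney. Of 11 matched kidney and nephron progenitor markers 6 were detected, with SALL1 and SIX2 at 28.8 and 15.9 TPM (means of 2), and UMOD and CDH16, markers of mature tubules, were listed at 0 in both libraries. PAX8 (0.09 and 0.01 TPM), OSR1 (0.26 and 0.42 TPM) and NPHS1 (0.13 and 0.18 TPM) were not detected either. Of 10 neuronal and adrenal medulla markers 4 were detected, led by UCHL1 (382 TPM), NEFM (50.8 TPM) and INA (19.9 TPM), while TH was listed at 0. Of 5 blood markers 2 were detected, HBA1 (8.43 TPM) among them, and PTPRC and CD3E were listed at 0. The summed level was 108 and 119 TPM for kidney, 470 and 453 TPM for neuronal and 15.7 and 13.4 TPM for blood markers.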

How the data were processed

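Poly(A)+ RNA of 2 HEK293T libraries was sequenced by the authors with 50-base reads. The submitters' processing notes name Trimmomatic 0.36, STAR 2.6.1c, RSEM 1.3.1 and GRCh37.p13 (hg19), while the methods name featureCounts, and the deposited tables carry RSEM's columns. In the labels the molecule is genomic DNA, although their protocol is one for RNA. The expected counts deposited by the authors share multi-mapped reads among genes, the deposited TPM values are scaled to effective length and to a common total, and the deposited FPKM values to effective length and library reads. A table of the whole series was read as the authors' pooled values.

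Detection, sums and shares came from the deposited TPM, and errors are SDs of 2 libraries. Genes were named from a GENCODE annotation of GRCh37, to which 96.1% of identifiers were matched. Exon overlaps and shared 50-base sequences came from that annotation, whose gene models need not be those used for the deposited counts. Expected counts were rounded, scaled by edgeR 4.0.16 TMM factors taken from genes whose counts summed to 10 or more, and tested with an exact binomial test (scipy 1.17.1). That test was checked on data simulated with counting error only, so the check does not cover wider spread between libraries. The log2 ratios used a pseudocount of 0.5 count. The GC trend was the median in 50 classes of genes. Promoter windows were RefSeq's (GRCh38), counted once per position, and matched to GRCh37 by sequence.

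The members, lists and tests were chosen with earlier results of these data known. Values are given in full for the 10 highest members, the highest and lowest detected member of each cluster, members called between the libraries and members next to the threshold, and of each list for the 3 highest; MEIS1, EVX2, other members and list genes outside this rule, and the noncoding genes HOTAIR and HOTTIP were named after their values were seen. Of the list names, LHX1, NEFL, PCGF2 and MIR10A were among those not analysed here, and HOXB-AS5 was matched to PRAC2 as its older name. Some genes and sequences that these rules would name are not reported here. Intervals and floors cover counting error only.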

Additional observations from a re-analysis of the deposited data

How the results depend on the processing

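No paired analysis was possible because both libraries belong to the same group. The number of detected HOX genes, 36, was between 32 and 38 under every other threshold, unit or table tried and was 36 without either library. On CPM in place of TPM, the share of HOXA was 25.5%, of HOXB 35.7%, of HOXD 22.7%, of the anterior genes 11.8%, of the central genes 27.6% and of the posterior genes 60.6%. With posterior mean TPM, the share of HOXC was 14.4%, of HOXD 21.0%, of the anterior genes 10.7% and of the central genes 31.6%. Without the highest gene of each cluster, the shares were 37.0% (HOXA), 26.9% (HOXB), 16.1% (HOXC) and 20.0% (HOXD). With number 3 counted as central, the anterior share was 2.72% and the central share 40.1%. No member had a posterior SD over the limit of 0.5 of its count, so leaving out such members changed no share. Without replicate 1 or replicate 2, the share ranged from 31.7% to 34.5% for HOXA, 29.8% to 31.6% for HOXB, 14.8% to 15.9% for HOXC and 56.6% to 57.9% for the posterior genes. The 10 highest members were the same genes under all 6 alternatives of unit, estimate, table and library. Their order was not the same on CPM, where HOXD13 (173 and 172) lay above HOXA9 (79.3 and 92.7). Of 26 named members, 19 had a posterior mean TPM within 1 SD of the TPM and 7 did not. In the test between the libraries, the count of 15 HOX genes became 10 with library totals and 11 with DESeq2 size factors. It was 10 and 16 with count minimums of 1 and 50 (39 and 37 HOX genes tested). It was 14 without the GC trend and 1 with an assumed coefficient of variation of 0.1, where more spread is allowed for between libraries. In the same order, the share of all tested genes called was 41.5%, 42.5%, 25.5%, 54.1%, 26.8% and 7.24%. TMM factors from all genes, an alternative added after seeing the data, called 11 HOX genes and 42.2% of all tested genes. Of the HOX genes, 6 were higher in replicate 2 and 5 in replicate 1. The reported factors, from genes whose counts summed to 10 or more, were likewise adopted after the count of 11 had been seen. Over all genes, library totals gave 4624 higher and 3553 lower in replicate 2, and the assumed coefficient of variation 1319 and 108. Depth limits HOXB1, HOXD1 and HOXD12, with at most 31.0 expected counts each.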
